A study of Mus musculus with 48 samples.

Results

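A group of 8 colonic transcripts was followed among the 55401 genes of the count table: *Casp1*, *Casp4*, *Casp6*, *Casp8*, *Il18*, *Il1b*, *Nlrp6* and *Pycard*. They were chosen by name, as caspases and inflammasome genes, and each symbol belonged to 1 Ensembl gene of GENCODE vM21. Male C57BL/6J mice that lack *Bmal1* in intestinal epithelial cells (*Bmal1*fl/fl x Villin CRE/wt, *Bmal1*IEC-/-) were compared with control littermates (*Bmal1*fl/fl x Villin wt/wt), which carry the floxed gene without Cre. Colon RNA was taken at 6 circadian times, from 4 mice per genotype each time (CT1, CT5, CT9, CT13, CT17 and CT21, in hours), 48 mice in all, each mouse giving 1 library. The mice were 18 to 20 weeks old, housed singly with a running wheel and free access to chow, and killed on the second day of darkness. Villin-Cre acts in epithelial cells, so whole colon also holds muscle, stromal and immune cells that keep *Bmal1*.

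Inflammasomes are protein platforms that form when a sensor detects microbial products or damage. The sensor binds the adaptor ASC, encoded by *Pycard*, which gathers and activates caspase-1, and this protease cuts the precursors of interleukin-1β and interleukin-18 into their active forms. In the gut, the sensor NLRP6 and the cytokine interleukin-18 are known from the epithelium, where they take part in mucus release and in defence against bacteria. Caspase-4, called caspase-11 in the older mouse literature, senses bacterial lipopolysaccharide inside the cell, caspase-8 starts death receptor signalling and restrains necroptosis, and caspase-6 is an executioner caspase.

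*Casp1* and *Casp4* are neighbours on the same strand of chromosome 9 (mm10, 5298517 to 5307265 and 5308828 to 5336783). *Pycard* lies on the minus strand of chromosome 7, from 127989708 to 127993867, and *Nlrp6* on the plus strand of the same chromosome, from 140920902 to 140929192. *Il18* is on chromosome 9 (50554827 to 50581840), *Il1b* on chromosome 2 (129364570 to 129371139), *Casp8* on chromosome 1 (58795374 to 58847503) and *Casp6* on chromosome 3 (129901425 to 129914103). No exon of the 8 genes shared bases with another gene of its strand. On the opposite strand, *Gm45205* covered 485 exonic bases of *Pycard*, 12.8% of its exonic length, and *Il1bos* covered 25 bases of *Il1b*. The strand setting of the counting was not given in the sources used here, so reads of *Pycard* and *Gm45205* in that stretch cannot be told apart.

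BMAL1 acts with CLOCK at E-boxes, whose letters are CACGTG, and receptors of the ROR and REV-ERB families act at elements that contain AGGTCA. Both were searched on both strands of RefSeq promoters (GRCm38.p6, 250 bases before to 50 after the start), which were at hand for all 8 genes. Of 32851 promoters of this length, 7.15% held an E-box and 16.3% held AGGTCA. *Casp1* was the only one of the 8 genes with an E-box, beginning 137 bases before its start, and AGGTCA was in none of these windows. The promoters of the neighbours *Casp1* and *Casp4*, whose counts moved together across mice, and of *Pycard*, the gene with the smallest p between genotypes, are printed 5′ to 3′ with the E-box in capitals. They lie at chr9:5298267-5298566 (plus strand), chr9:5308599-5308898 (plus strand, the more upstream of a pair of starts) and chr7:127993818-127994117 (minus strand). A match is a description of letters and was not tested for binding.
Casp1: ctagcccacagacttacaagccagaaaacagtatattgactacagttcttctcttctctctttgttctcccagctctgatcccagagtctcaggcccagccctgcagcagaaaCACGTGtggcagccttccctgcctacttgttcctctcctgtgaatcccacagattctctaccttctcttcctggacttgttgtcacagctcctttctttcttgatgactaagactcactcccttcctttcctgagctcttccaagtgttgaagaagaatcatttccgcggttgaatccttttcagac
Casp4: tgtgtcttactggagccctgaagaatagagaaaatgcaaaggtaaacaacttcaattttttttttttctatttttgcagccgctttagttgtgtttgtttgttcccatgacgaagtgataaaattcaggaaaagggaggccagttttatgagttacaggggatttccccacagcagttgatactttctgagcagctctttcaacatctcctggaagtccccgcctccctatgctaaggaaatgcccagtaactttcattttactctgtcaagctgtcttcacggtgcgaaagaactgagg
Pycard: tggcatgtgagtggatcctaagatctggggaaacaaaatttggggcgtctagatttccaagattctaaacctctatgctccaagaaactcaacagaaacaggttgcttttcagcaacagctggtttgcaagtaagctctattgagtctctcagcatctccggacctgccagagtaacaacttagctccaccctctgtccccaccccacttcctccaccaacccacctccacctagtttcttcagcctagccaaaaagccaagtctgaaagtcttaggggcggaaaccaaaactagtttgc

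Libraries held 3144997 to 4785844 counted reads, and the 8 genes together took from 0.0695% to 0.0943% of them. All 8 passed the filter on low counts, which kept 14618 genes. *Arntl*, which encodes BMAL1, averaged 131 ± 96.8 normalised read counts in control mice and 124 ± 23.1 in the knock-out (SD, n = 24 each, counts divided by DESeq2 size factors), and the difference did not pass the test (edgeR adjusted p = 0.458). Its time course changed: the means of the 6 times spanned 26.2 to 258 in control mice, whereas *Bmal1*IEC-/- means stayed between 113 and 138 (edgeR adjusted p = 9.4e-14 for a changed 24 h cosine). The clock gene *Nr1d1* was lower in the knock-out (-1.56 on the log2 scale, edgeR adjusted p = 2.04e-13). Its means still moved over the day, from 6.90 to 188 in *Bmal1*IEC-/- mice and from 13.8 to 552 in control mice. A changed 24 h cosine was not called for *Nr1d1* (edgeR adjusted p = 0.864). *Bmal1*IEC-/- replicate SV385 at CT1 differed from SV479 and SV480 of its group by 15.2 and 16.3 times the sampling noise (chi-square per degree of freedom), and replicate SV384 by 8.42 and 8.98 times. Pairs of *Bmal1*IEC-/- mice at CT9 differed by 4.92 to 13.2 times. Results were also computed without SV384 and SV385, called the pair here. With all mice, 24.7% of genes tested passed the genotype test at CT1, against 1.21% without the pair. Leaving out the pair left 2 *Bmal1*IEC-/- mice at CT1, and the part of fewer mice in this drop was not tested. Markers of muscle and fibroblasts were low in SV385, with sums of 876 and 228 CPM (counts scaled to the same library total). The 22 *Bmal1*IEC-/- mice outside the pair had 3152 to 5265 and 550 to 1026 CPM, ranges that held SV384. In the sum of goblet cell markers SV384 lay below these 22 mice (11830 CPM, against 14258 to 25552). In the sum of colonocyte markers SV384 (14794 CPM) and SV385 (17373 CPM) lay above them (8970 to 14187). SV385 was also above them in epithelial markers (10992 CPM, against 6119 to 8402) and below them in macrophage markers (121 CPM, against 222 to 408).

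Per length of exon, *Casp1* was the highest of the 8 genes in control colon, with 138 ± 23.7 CPM per kb (SD, n = 24). *Nlrp6* and *Casp8* followed with 46.4 ± 7.13 and 41.0 ± 4.60 CPM per kb, then *Pycard* with 26.9 ± 4.35, *Il18* with 19.6 ± 4.87, *Casp4* with 9.18 ± 3.60, *Casp6* with 6.93 ± 0.559 and *Il1b* with 1.17 ± 0.419. *Nlrp6* and *Casp8*, and *Casp4* and *Casp6*, differed by less than the larger SD of each pair. In *Bmal1*IEC-/- mice the order was the same, from 149 ± 17.7 CPM per kb for *Casp1* to 0.760 ± 0.364 for *Il1b*. The length used is that of all annotated exons of a gene merged, not of 1 transcript (3800 bases for *Pycard* and 5584 for *Casp6*). The order therefore depends on the annotation. Without division by length, *Nlrp6* averaged 236 CPM and *Casp1* 207 CPM in control mice. *Il1b*, the gene of interleukin-1β, was counted only 3 to 15 times per control mouse and 1 to 10 times per *Bmal1*IEC-/- mouse, so each of its values rests on few reads.

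**Figure D1:**
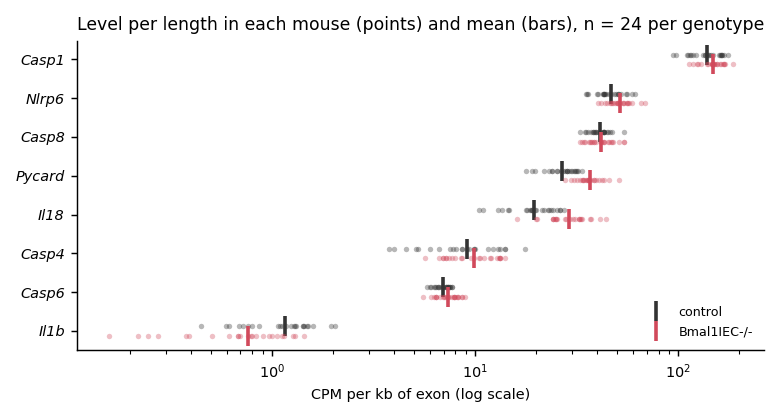
Level of each gene in CPM per kb of exon (log axis) in 24 control (grey) and 24 *Bmal1*IEC-/- mice (red), points for mice and bars for means. *Casp1* lies highest, at a mean of 138 in control mice, and *Il1b* lowest, at 1.17.

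To learn whether loss of the epithelial clock changed these genes over the whole day, genotypes were compared across all 48 mice in a model with circadian time. *Pycard*, *Il18* and *Nlrp6* rose and *Il1b* fell in *Bmal1*IEC-/- colon, whereas the 4 caspases did not pass the test. These were 4 of 8 genes, where 12% of all genes tested were called, 6.4% higher and 5.56% lower. The median log2 fold change was 0.13 over the 8 genes and 0.00 over all genes tested. Without SV384 and SV385 the same 4 genes passed, where 10.5% of genes did.

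*Pycard* ranged from 259 to 489 normalised read counts in control mice, with a median of 403, and from 403 to 748 in *Bmal1*IEC-/- mice, with a median of 523. The lowest *Bmal1*IEC-/- mouse was thus at the control median, and the ranges overlapped above it. The difference was 0.45 ± 0.05 on the log2 scale (SE), 1.37-fold (edgeR quasi-likelihood test with Benjamini-Hochberg adjustment, adjusted p = 1.31e-09), and 0.43 without the pair (edgeR adjusted p = 6.85e-09). The *Bmal1*IEC-/- mean was the higher at 6 of 6 times.

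*Il18*, the gene of interleukin-18, ran from 41.2 to 107 normalised read counts in control mice (median 76.7) and from 63.9 to 173 in *Bmal1*IEC-/- mice (median 112). The upper part of the *Bmal1*IEC-/- range lay above every control mouse, and the lower part overlapped with control. It was 1.48-fold higher, by 0.57 ± 0.08 on the log2 scale (edgeR adjusted p = 9.57e-07), again with the higher mean at 6 of 6 times. Without the pair the difference was 0.54 (edgeR adjusted p = 3.98e-06).

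*Nlrp6* ran from 679 to 1191 normalised read counts in control (median 867) and from 779 to 1338 in *Bmal1*IEC-/- mice (median 977), so that most of both ranges was shared. The rise was small, 0.16 ± 0.04 on the log2 scale or 1.12-fold (edgeR adjusted p = 0.0148), and 0.14 without the pair (edgeR adjusted p = 0.0328). It did not pass when the 8 mice of CT1 were left out (0.11, edgeR adjusted p = 0.157) or without circadian time in the model (0.15, edgeR adjusted p = 0.105).

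*Il1b* fell by 0.62 on the log2 scale, with an SE of 0.18 (edgeR adjusted p = 0.0183). Its medians were 8.84 normalised read counts in control (3.27 to 14.9) and 5.67 in *Bmal1*IEC-/- mice (1.13 to 10.5), ranges that overlapped for most mice. The *Bmal1*IEC-/- mean was the lower at 6 of 6 times, without the pair the difference was -0.59 (edgeR adjusted p = 0.0315), and without CT13 it no longer passed (-0.49, edgeR adjusted p = 0.113). It was the only one of the 8 genes to pass both this threshold and a fold change of 1.5, which 1.35% of all genes tested did. Macrophages are a known source of interleukin-1β. The summed level of 8 macrophage markers had a median of 328 CPM in both genotypes (289 to 407 in control mice and 121 to 409 in *Bmal1*IEC-/- mice). The lowest value was that of SV385, and the 22 *Bmal1*IEC-/- mice outside the pair ran from 222 to 408 CPM. Of the 8 markers, 0 passed the edgeR test, 0 of them with an unadjusted p under 0.05. At CT13 their sum was shifted lower with some overlap (299.6 to 368 CPM in control mice and 272 to 305 CPM in *Bmal1*IEC-/- mice). Its part in the change of *Il1b* was not tested. The 5 neutrophil markers summed to 1.04 to 4.10 CPM in control mice and 1.04 to 3.90 CPM in *Bmal1*IEC-/- mice, and none of these 5 passed the filter on low counts.

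Among the caspases, *Casp1* differed by 0.11 ± 0.04 (edgeR adjusted p = 0.0752), *Casp4* by 0.14 ± 0.08 (0.265), *Casp6* by 0.09 ± 0.04 (0.188) and *Casp8* by 0.03 ± 0.05 (0.780) on the log2 scale. *Casp1* passed when control replicate SV417 (0.13, edgeR adjusted p = 0.0418), control replicate SV453 (0.12, 0.0458) or SV384 (0.12, 0.0494) was left out. The sign for *Casp8* turned without the pair (-0.0074) and without CT1 (-0.019).

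In bulk tissue, more cells of a type and more RNA per cell cannot be told apart. Of 7 epithelial markers, *Krt8*, *Krt19* and *Cdh1*, which encode keratins and E-cadherin, were higher in *Bmal1*IEC-/- mice (log2 0.23, 0.24 and 0.15) and 4 did not pass. Their summed level ran from 5216 to 8044 CPM in control mice and from 6119 to 10992 CPM in *Bmal1*IEC-/- mice. The highest value was that of SV385, and the 22 *Bmal1*IEC-/- mice outside the pair ran from 6119 to 8402 CPM. Without the pair, *Cdh1* was higher (0.12) and *Epcam* lower (-0.10). Of 5 colonocyte markers, the carbonic anhydrase gene *Car4* and the chloride exchanger gene *Slc26a3* fell (by 0.49 and 0.78 on the log2 scale). Of 5 goblet cell markers, *Zg16* and *Fcgbp* rose (0.74 and 0.23) and *Clca1* fell (by 0.51). The 5 smooth muscle markers had log2 fold changes of -0.19 to -0.28, each with an unadjusted p under 0.05, and *Cnn1* passed the edgeR test (without the pair *Myh11* as well). The 5 fibroblast markers had log2 fold changes of -0.12 to -0.26, 2 of them with an unadjusted p under 0.05, and *Dcn* passed. In edgeR 0 of the 8 T cell, B cell and plasma cell markers tested passed, 4 of them with an unadjusted p under 0.05. Their part in the changes of *Pycard*, *Il18*, *Nlrp6* and *Il1b* was not tested.

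Genotypes were then compared within each circadian time, 4 against 4 mice. Over the 6 times, 8 of the 48 combinations of a gene and a time passed, each with the higher level in *Bmal1*IEC-/- mice.

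**Figure D2:**
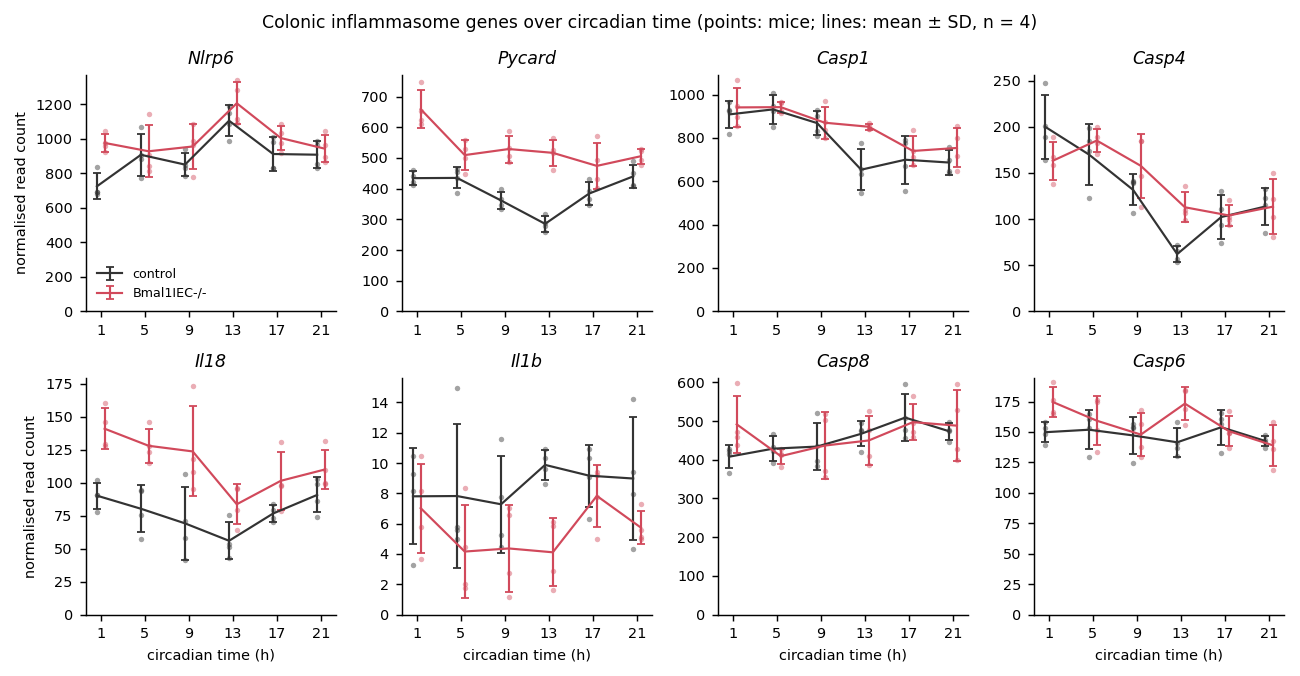
Normalised read count of each gene against circadian time in hours, with points for mice and lines for mean ± SD of 4 mice (control grey, *Bmal1*IEC-/- red). At CT13, *Pycard* averaged 285 in control mice and 517 in *Bmal1*IEC-/- mice, and *Casp4* 62.1 and 113.

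At CT13, the start of the active phase, *Pycard*, *Casp4* and *Casp1* were higher in *Bmal1*IEC-/- colon. These were 3 of 8 genes, against 3.58% of all genes tested at this time. In the same groups, 3 of 8 genes lay wholly above control (6.63% of all genes) and *Il1b* lay wholly below it (6.38%). *Pycard* had 259, 277, 287 and 319 normalised read counts in the 4 control mice and 462, 517, 525 and 564 in the 4 *Bmal1*IEC-/- mice. The groups did not overlap, and every *Bmal1*IEC-/- mouse exceeded the highest control mouse. The difference was 0.86 ± 0.10 on the log2 scale, 1.81-fold (edgeR adjusted p = 1.47e-08). *Casp4* had 53.8, 57.1, 65.0 and 72.4 normalised read counts in control mice and 99.1, 106, 110 and 136 in *Bmal1*IEC-/- mice. Again the groups were apart, with a difference of 0.86 ± 0.19 or 1.82-fold (edgeR adjusted p = 0.00274).

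*Casp1*, the gene of the protease that ASC recruits, had 544, 636, 658 and 776 normalised read counts in control mice at CT13 and 841, 841, 855 and 867 in *Bmal1*IEC-/- mice. The 4 *Bmal1*IEC-/- mice lay close together above the more widely spread control mice, at 1.3-fold or 0.38 ± 0.10 on the log2 scale (edgeR adjusted p = 0.0163). This call was lost without control replicate SV396 (0.30, edgeR adjusted p = 0.123) or SV424 (0.37, edgeR adjusted p = 0.0524). *Il1b* had 8.62, 9.60, 10.3 and 10.9 normalised read counts in control mice and 1.60, 2.86, 5.86 and 6.11 in *Bmal1*IEC-/- mice, a difference of -1.25 ± 0.45 that did not pass (edgeR adjusted p = 0.120). *Il18* (0.57 ± 0.21, edgeR adjusted p = 0.124), *Casp6* (0.29 ± 0.10, 0.111), *Nlrp6* (0.12 ± 0.10, 0.623) and *Casp8* (-0.06 ± 0.12, 0.879) did not pass either.

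At this time the summed colonocyte markers ran from 10532 to 11956 CPM in control mice and from 9084 to 9559 CPM in *Bmal1*IEC-/- mice, and goblet cell markers from 17889 to 22294 and from 14258 to 18184 CPM. *Car1* and *Muc2* held most of these sums (control means of 39419 and 60189 normalised read counts over all times). Gene by gene at CT13, *Car4* (log2 -0.73, edgeR adjusted p = 1.49e-05) and *Slc26a3* (-0.82, 0.00294) fell and the other colonocyte markers did not pass. *Zg16* rose (0.75, 0.0149) and the other goblet cell markers, *Muc2* among them (-0.49, 0.171), did not pass. The epithelial sum, 6649 to 8044 in control mice and 6212 to 8402 CPM in *Bmal1*IEC-/- mice, overlapped. Fibroblast markers summed to 686 to 932 CPM in control mice and lay wholly lower in *Bmal1*IEC-/- mice, at 620 to 676 CPM. T cell markers (8.14 to 10.8 and 5.43 to 8.30 CPM), macrophage markers (299.6 to 368 and 272 to 305 CPM) and smooth muscle markers (3730 to 4549 and 3228 to 4130 CPM) were shifted lower with some overlap. Plasma cell markers (797 to 1004 and 898 to 941 CPM), follicular B cell markers (2.23 to 5.23 and 3.41 to 5.72 CPM) and neutrophil markers (1.69 to 3.09 and 1.04 to 3.23 CPM) overlapped. Their part in the CT13 differences was not tested.

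At CT1, *Pycard*, *Nlrp6* and *Il18* were higher in *Bmal1*IEC-/- mice, 3 of 8 genes where 24.7% of all genes passed. *Pycard* had 413, 420, 442 and 462 normalised read counts in control mice and 612, 623, 655 and 748 in *Bmal1*IEC-/- mice (log2 0.60 ± 0.09, edgeR adjusted p = 3.59e-05). *Nlrp6* had 679, 689, 691 and 839 in control mice and 922, 959, 976 and 1047 in *Bmal1*IEC-/- mice (log2 0.43 ± 0.11, edgeR adjusted p = 0.00309). *Il18* had 77.7, 90.4, 90.5 and 102 in control mice and 128, 129, 146 and 161 in *Bmal1*IEC-/- mice (log2 0.64 ± 0.19, edgeR adjusted p = 0.0133). In all 3 genes the groups did not overlap, as was so for 5 of 8 genes against 10.8% of all genes (8.43% lay wholly below). With the pair left out, which left 2 *Bmal1*IEC-/- mice at CT1, *Pycard* passed (0.50, edgeR adjusted p = 0.0158), but *Nlrp6* (0.47, 0.0502) and *Il18* (0.50, 0.270) did not.

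At CT9, *Pycard* had 334, 347, 367 and 398 normalised read counts in control mice and 488, 507, 532 and 590 in *Bmal1*IEC-/- mice (log2 0.55 ± 0.09, edgeR adjusted p = 0.000132). The groups lay apart, as for 1 of 8 genes (1.98% of all genes above control, 2.25% below). *Il18* had 41.2, 57.8, 70.6 and 107 in control mice and 95.3, 108, 118 and 173 in *Bmal1*IEC-/- mice, with the highest control mouse inside the *Bmal1*IEC-/- range (log2 0.85 ± 0.20, edgeR adjusted p = 0.00998). These were 2 of 8 genes, against 1.46% of all genes tested. The call for *Il18* was lost without control replicate SV412 (0.77, edgeR adjusted p = 0.0681) or SV420 (0.66, 0.0987) or without *Bmal1*IEC-/- replicate SV400 (0.64, 0.172).

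At CT5, CT17 and CT21, 0 of 8 genes passed in edgeR, where 0.376%, 0.876% and 0.328% of all genes did. With no adjustment, *Il18* and *Pycard* had a p under 0.05 at CT5 and CT17 and *Pycard* at CT21, and DESeq2 called 0 of 8 at each of these times too. *Il18* at CT5 had 57.4, 75.2, 93.9 and 94.5 normalised read counts in control mice and 115, 123, 127 and 146 in *Bmal1*IEC-/- mice, without overlap (log2 0.67 ± 0.19, edgeR adjusted p = 0.181), and it passed when no filter on low counts was used (0.67, edgeR adjusted p = 0.00535). It was the only one of the 8 genes whose groups lay apart at CT5, where 2.21% of all genes lay wholly above control and 1.85% wholly below. At CT17 the groups of all 8 overlapped (2.05% of all genes lay above and 2.7% below), as they did at CT21 (2.24% and 2.33%).

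**Figure D3:**
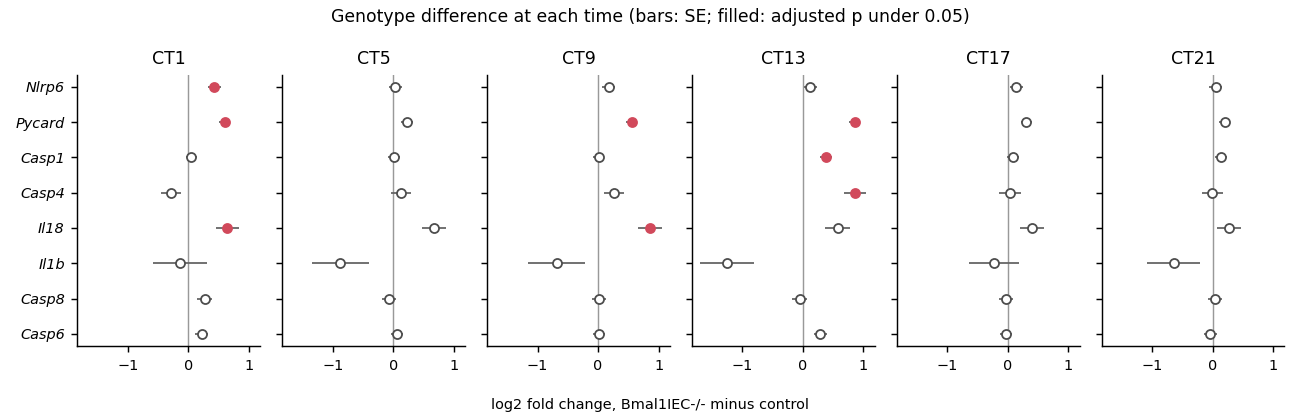
Log2 fold change of each gene (*Bmal1*IEC-/- minus control) with its SE at each circadian time, filled where the edgeR adjusted p was under 0.05. *Pycard* lies to the right of 0 at all 6 times, from 0.20 at CT21 to 0.86 at CT13, and *Il1b* to the left at all 6.

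Whether these genes followed a 24 h rhythm was tested in each genotype with JTK_cycle, which ranks the values of 24 mice against cosines of 12 phases. In control colon, 6 of 8 genes were rhythmic, where 49.7% of genes past the filter were. *Casp4* (JTK_cycle adjusted p = 3.03e-06), *Pycard* (6.25e-05), *Casp1* (0.00026) and *Il18* (0.0102) peaked between CT0 and CT4. *Nlrp6* (0.0148) and *Casp8* (0.0178) peaked later, at CT14 and CT16, and *Casp6* and *Il1b* were not called (both 1). With Benjamini-Hochberg adjustment over all genes with a count as well, *Casp1*, *Casp4* and *Pycard* passed and *Il18* (0.0602), *Nlrp6* (0.0807) and *Casp8* (0.0933) did not. The call for *Casp8* was also lost without control replicate SV453 (0.0571).

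CT13 was the time of the lowest control mean for *Casp1*, *Casp4*, *Casp6*, *Il18* and *Pycard*, and the time of the highest for *Nlrp6* and *Il1b*. *Casp6* and *Il1b* were not called rhythmic, and their control means spanned 142 to 154 and 7.28 to 9.88 normalised read counts. *Casp4* moved most, from 62.1 ± 8.32 normalised read counts at CT13 to 200 ± 34.7 at CT1 (SD, n = 4), 3.22-fold. *Casp1* ran from 653 ± 95.4 at CT13 to 931 ± 65.3 at CT5, *Il18* from 55.9 ± 14.0 at CT13 to 90.7 ± 13.2 at CT21, and *Pycard* from 285 ± 25.1 at CT13 to 440 ± 37.5 at CT21. *Nlrp6*, the sensor, ran the other way, from 725 ± 76.1 at CT1 to 1105 ± 88.2 at CT13.

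In *Bmal1*IEC-/- colon, 3 of 8 genes were rhythmic, where 29.2% of genes past the filter were. These were *Casp4* (JTK_cycle adjusted p = 4.6e-05), *Il18* (0.00026) and *Casp1* (0.000441), with peaks at CT4, CT2 and CT6. *Pycard* (0.186), *Nlrp6* (0.0921) and *Casp8* (0.309) were not called, nor were *Casp6* (1) and *Il1b* (0.750). The call for *Nlrp6* changed with single mice: it passed without *Bmal1*IEC-/- replicate SV479 (0.0338), SV439 (0.0282) or SV400 (0.0404). Leaving out SV384 and SV385 gave 3 rhythmic genes too, where 29.1% of genes were. The fitted cosine of *Pycard* had a peak-to-trough fold of 1.46 in control mice and 1.21 in *Bmal1*IEC-/- mice, that of *Casp4* 2.57 and 1.86, that of *Casp1* 1.47 and 1.28, and that of *Il18* 1.54 in both.

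**Figure D4:**
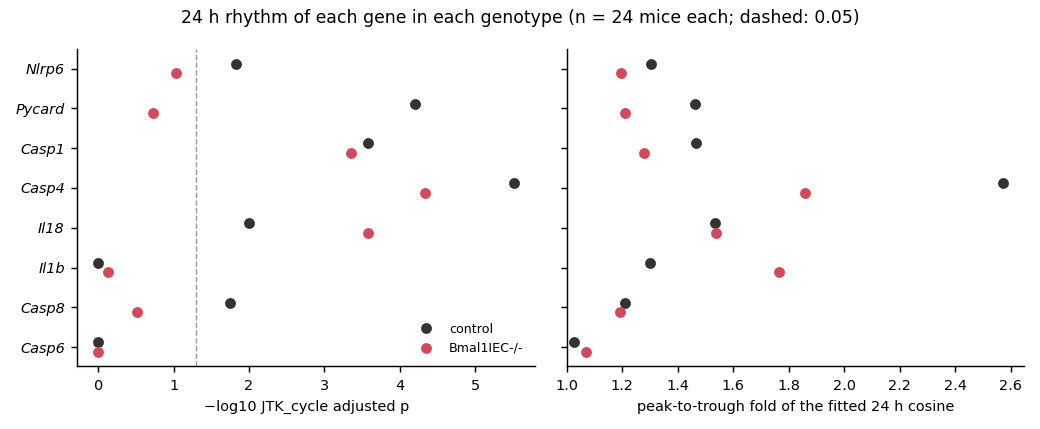
Left, −log10 of the JTK_cycle adjusted p of each gene in control (grey) and *Bmal1*IEC-/- mice (red), with the threshold of 0.05 dashed; right, the peak-to-trough fold of the fitted 24 h cosine. *Casp4* has the largest fold in both genotypes, 2.57 and 1.86, and *Pycard* passes the threshold in control mice and not in *Bmal1*IEC-/- mice.

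A rhythm called in 1 genotype and not in the other does not show that the rhythm differed, so the change itself was tested. For a changed 24 h cosine, 0 of 8 genes passed in edgeR, where 1.92% of genes tested did. *Casp4* had an edgeR adjusted p of 0.0940 and *Pycard* of 0.326, the only members with an unadjusted p under 0.05 (0.00321 and 0.0499). *Casp4* passed with DESeq2 (adjusted p = 0.0472) and without control replicate SV453 (edgeR adjusted p = 0.0469) or SV441 (0.0478). For a day and night difference that depends on genotype, 0 of 8 passed in edgeR and in DESeq2, where 0.137% of genes did in edgeR, and *Casp1* alone had an unadjusted p under 0.05 (0.0338). A test of any change of the genotype difference over the 6 times, with 5 degrees of freedom and added after the data were seen, called *Pycard* (edgeR adjusted p = 0.00569) and *Casp4* (edgeR adjusted p = 0.0443), 2 of 8 genes against 3.98% of genes. Without SV384 and SV385 it called *Pycard* (edgeR adjusted p = 0.0149) and not *Casp4* (edgeR adjusted p = 0.249).

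For *Pycard*, the genotype differences on the log2 scale were 0.60 at CT1, 0.22 at CT5, 0.55 at CT9, 0.86 at CT13, 0.31 at CT17 and 0.20 at CT21. The largest difference thus fell at the control trough. The *Bmal1*IEC-/- mean at CT13 was 517 ± 41.7 normalised read counts, inside the 474 to 529 that the *Bmal1*IEC-/- means spanned at all times but CT1 (659 ± 61.6). For *Casp4*, the differences were -0.29, 0.12, 0.26, 0.86, 0.03 and -0.01 in the same order, of which the one at CT13 passed.

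Across the 48 mice, *Casp1* and *Casp4* varied together (Pearson r = 0.80 of log2 CPM), as did *Il18* and *Pycard* (0.74) and, less closely, *Casp4* and *Pycard* (0.56). *Nlrp6* and *Casp4* had an r of -0.46. These points share circadian time and genotype, and the values are descriptive. The genes with the most similar pattern were *Slc40a1* (r = 0.91), *Slc8a1* (0.87) and *Eif2a* (0.86) for *Casp1*, and *Prss23* (0.89), *Ms4a12* (0.88) and *Hao2* (0.88) for *Casp4*. For *Pycard* they were *Abcg2* (0.86), *Mtch2* (0.85) and *Slc35f5* (0.85), and for *Il18* *Agbl2* (0.80), *Dab1* (0.78) and, again, *Mtch2* (0.78). *Nlrp6* was closest to *Tprn* (0.83), *Slc35c1* (0.82) and *Unc119b* (0.82), and *Casp8* to *Ywhab* (0.77), *Strap* (0.74) and *Naa50* (0.73). No gene reached an r of 0.7 with *Casp6*.

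The rest of the pathway was described through 5 lists with 54 genes, of which 48 passed the filter on low counts. Of these, 3 rose and 4 fell in *Bmal1*IEC-/- mice, 14.6% where 12% of all genes tested were called, with a median log2 fold change of -0.02. Among 9 other inflammasome sensors tested, *Naip1*, which takes part in sensing bacterial secretion systems, rose (0.17 ± 0.05, edgeR adjusted p = 0.0145) and 8 did not pass. Reads of *Naip1* and its close relatives can be hard to assign, so this value is uncertain. Without the pair *Nlrp9b* passed as well (0.25, edgeR adjusted p = 0.00276). *Nlrp1a*, *Nlrp3*, *Nlrp12* and *Mefv* were too low to test.

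Of the 9 helpers and effectors, which include *Gsdmd*, the pore-forming target of inflammatory caspases, 0 passed in edgeR with or without the pair. Among 10 caspase-8 partners and necroptosis genes, *Mlkl*, the executor of necroptosis, fell by 0.18 on the log2 scale with an SE of 0.06 (edgeR adjusted p = 0.0253). At an unadjusted p under 0.05, 1 of the 9 helpers and effectors would have passed.

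Among 11 genes of mitochondrial apoptosis and its inhibitors, *Bcl2* fell by 0.35 (SE 0.06, edgeR adjusted p = 1.73e-05) and *Mcl1* by 0.13 (SE 0.04, edgeR adjusted p = 0.0202), both inhibitors of this route, and *Bak1*, which opens it, rose by 0.21 (SE 0.06, edgeR adjusted p = 0.0130). The other 8 genes did not pass, and the median log2 fold change of the 11 was 0.01. *Bcl2* was also lower at CT13 (-0.54, edgeR adjusted p = 0.00554).

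Among 9 ligands, receptors and antagonists of the IL-1 and IL-18 family tested, *Il1r1*, the signalling receptor of interleukin-1, averaged 184 ± 59.0 normalised read counts in control mice and 263 ± 51.4 in *Bmal1*IEC-/- mice. It rose by 0.56 ± 0.07 on the log2 scale (edgeR adjusted p = 1.74e-07) and by 0.95 at CT13 (edgeR adjusted p = 1.2e-05). *Il18bp*, which encodes the protein that binds and neutralises interleukin-18, fell by 0.27 with an SE of 0.08 (edgeR adjusted p = 0.0235, and 0.0486 without the pair). The other 7 genes did not pass, and *Il1a* and *Il1r2* were too low to test.

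**Figure D5:**
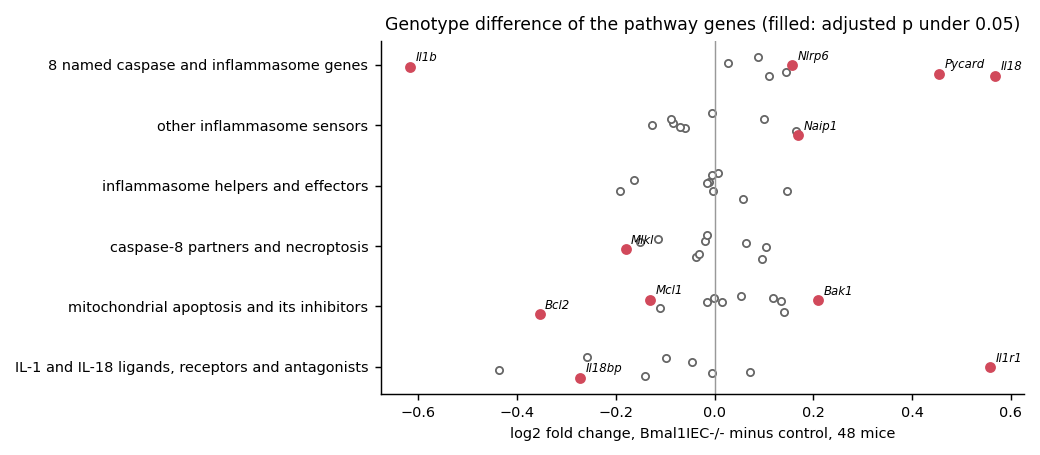
Log2 fold change between genotypes over 48 mice for the 8 genes and for the 48 tested genes of 5 pathway lists, filled and named where the edgeR adjusted p was under 0.05. *Il1r1* (0.56) and *Il18* (0.57) lie farthest to the right and *Il1b* (-0.62) farthest to the left.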

How the data were processed

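The authors sequenced colon RNA from 48 mice with a stranded mRNA kit. Per the methods and processing notes, reads were trimmed with Trimmomatic 0.39, aligned to mm10 with STAR 2.7.5c and counted on exons with featureCounts 1.4.6 (mapping quality of at least 4, 1 feature, not chimeric). The deposited values are the authors' raw read counts per gene. The annotation and strand setting were not given in the sources used here. Identifiers were matched to GENCODE vM21 without versions (55141 of 55401). Groups came from the labels, and no batch is given.

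Genes kept by filterByExpr over the 12 groups were tested with edgeR 4.0.16 (TMM, quasi-likelihood F test, Benjamini-Hochberg adjustment over all genes tested, threshold 0.05) in R 4.3.3. Models held genotype and time, the 12 groups, genotype by 24 h cosine and sine, or genotype by day (CT1, CT5 and CT9) and night. SE is the log2 fold change over the root of F. Normalised read counts were divided by DESeq2 1.42.0 size factors. JTK_cycle was an own implementation (exact null, p adjusted over 12 phases 2 h apart, 24 h period), run in Python 3.11.15 over 32527 genes with at least 1 count. Steps were tested on simulated data. A count of 0 allows up to 3 counts at these depths, for counting error only. The labels name single mice as replicates, and counts of mice in 1 group differed by 2.01 to 16.3 times the sampling noise (chi-square per degree of freedom, 72 pairs). The alternatives were DESeq2, other normalization, filter and thresholds, and leaving out mice or times.

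Members, lists and tests were chosen with earlier results of these data known. All 8 members are named. From each list come up to 3 called genes with the smallest p, and as similar genes the 3 with the highest r, from 0.7, for members with at least 50 normalised read counts. The 46-mouse lists and *Nlrp9b* and *Epcam* were added after values were seen. A further list of pathway genes is not reported here.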

Additional observations from a re-analysis of the deposited data

Results flagged for a closer look

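Of 96 groups of 4 mice examined, 4 held a mouse that lay farther from the others than Dixon's limit allows, where chance gives about 5 in 100. Control replicate SV420 at CT9 was low in both *Casp4* (107 normalised read counts, against 139 to 141 in the other 3 mice) and *Casp6* (125, against 154 to 157). Control replicate SV446 at CT5 was high in *Il1b* (14.9, against 5.01 to 5.78), and control replicate SV469 at CT1 was high in *Nlrp6* (839, against 679 to 691).

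The genotype difference changed between circadian times in *Pycard* (edgeR interaction over 6 times, adjusted p = 0.00569) and in *Casp4* (edgeR adjusted p = 0.0443). Without SV384 and SV385 the test called *Pycard* (0.0149) and not *Casp4* (0.249).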

How the results depend on the processing

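The count of 4 genes called by genotype was 4 with DESeq2, RLE normalization, no filter on low counts and 46 mice, 0 when tested against a fold change of 1.5, and 4 to 5 when each mouse was left out. *Casp8*, never called, changed sign with 46 mice (-0.0074) and without CT1 (-0.019), and at CT13 leaving out single mice gave -0.14 to 0.0133. The calls at CT1 fell from 3 to 1 with 46 mice, those at CT5 went from 0 to 1 without a filter on low counts, and those at CT9 ran from 1 to 2 when single mice were left out. *Il18* at CT13 passed without the filter (0.58, edgeR adjusted p = 0.0296). Genes rhythmic in control numbered 6 and were 3 with adjustment over all genes. Genes with a changed rhythm went from 0 to 1 with DESeq2 and ran from 0 to 1 with single mice left out. The test over 6 times went from 2 genes to 1 with 46 mice. The cause of these changes was not tested, except that leaving out mice or times leaves fewer samples and that testing against a fold asks for a larger change. No paired analysis was possible because each mouse carries its own number and was sampled at 1 time.

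At 3144997 counts in the smallest library, *Il1b* rests on 1 to 15 counts a mouse. The exonic lengths are those of GENCODE vM21, and the annotation used for counting was not given in the sources used here. Protein levels and caspase activity were not measured in these files.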

Other observations

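Rhythms in the rest of the pathway were counted with JTK_cycle. Of 48 genes tested in the 5 lists, 34 were rhythmic in control and 18 in *Bmal1*IEC-/- colon, where 49.7% and 29.2% of genes past the filter were. The IL-1 and IL-18 family had 9 of 9 rhythmic genes in control mice against 7 in the knock-out. The other inflammasome sensors had 7 of 9 and 2, the helpers and effectors 7 of 9 and 4, the caspase-8 partners and necroptosis genes 5 of 10 and 2, and the genes of mitochondrial apoptosis and its inhibitors 6 of 11 and 3. The differences between genotypes in these counts were not tested.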
